A study of Mus musculus with 4 samples.

Results

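Cytochrome P450 genes were followed in RNA sequencing of mouse distal colon taken after dextran sulfate sodium (DSS), an agent that damages the colonic lining and causes colitis. The members were the protein-coding genes whose mouse symbol consists of Cyp, a family number, a subfamily letter and a gene number, so that Cyp51 was left out. The annotation holds 94 such genes, and 55 of them had a row among the 22422 genes of the deposited table. The other 39 were not analysed here. The colons came from 2 groups of female mice aged 6 weeks that had received 2% DSS for 5 days, wild type and Elf4fl/fl-Villin-Cre, with 2 libraries each. In the latter, Cre recombinase under the villin promoter, which is active in intestinal epithelium, recombines the loxP-flanked gene of the ETS transcription factor Elf4. The strain is C57BL/6 in the series design and in the wild-type labels, whereas C57BL/8 is what the labels give for both Elf4fl/fl-Villin-Cre samples. The labels name neither the alleles of the wild-type mice nor separate animals for the replicates, so p-values cover only how far these samples spread, and that spread may be technical. Both groups received DSS, and untreated colon was not analysed here.

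Cytochromes P450 are haem enzymes that use molecular oxygen to oxidise small lipophilic molecules. Most sit in the endoplasmic reticulum and take electrons from the reductase Por, and a few mitochondrial ones take them from ferredoxin. Families 1 to 3 mainly clear drugs, dietary compounds and other foreign chemicals, and members of families 2 and 4 also oxidise fatty acids and eicosanoids. The remaining families act on defined endogenous substrates such as cholesterol, bile acids, steroids, vitamin D and retinoic acid. In the gut these enzymes are made largely by absorptive epithelial cells, and their genes are controlled by ligand-sensing receptors such as Nr1i2 and Ahr.

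Values are normalised reads, that is, reads scaled per library by the authors and not corrected for gene length. The libraries held between 15885028 and 16425954 recovered reads. Elf4 (chrX:48411046-48463132, mm10) was at 1588 and 1938 in the wild-type libraries, against 897 and 758 with Elf4fl/fl-Villin-Cre, a log2 fold change of -1.09 (SE 0.16, limma adjusted p = 0.0139). RNA came from intact distal colon tissue and not from sorted cells, so fewer cells of a type and less RNA per cell cannot be told apart in any of the values below. The epithelial marker list moved with genotype: 14 of its 16 genes were lower in Elf4fl/fl-Villin-Cre colon and none was higher by limma, with a median log2 fold change of -1.31. The summed epithelial level was 458350 and 522570 in wild type against 161790 and 219160 in Elf4fl/fl-Villin-Cre. All 8 macrophage and all 7 neutrophil markers were higher, with medians of 0.93 and 3.28. No marker of these 3 lists was at 0 in any library, and the part of this shift in the P450 results was not tested.

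P450 transcripts made up less of the RNA in the Elf4fl/fl-Villin-Cre libraries. Summed over the 55 members, they took 984 and 1361 reads per 1000000 reads of the library (RPM) in wild type, against 711 and 817 RPM in Elf4fl/fl-Villin-Cre colon. The means were 1173 ± 266 and 764 ± 75.0 RPM (SD, n = 2), a 1.53-fold difference, and the groups did not overlap. An exact two-sided permutation test gave p = 0.333, the smallest value that 2 against 2 libraries allow. Cyp2d34 alone carried 36.5% and 39.1% of all normalised P450 reads in wild type, against 32.6% and 35.1% in Elf4fl/fl-Villin-Cre. The Cyp2d subfamily as a whole carried between 48.1% and 57.6%.

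**Figure D1:**
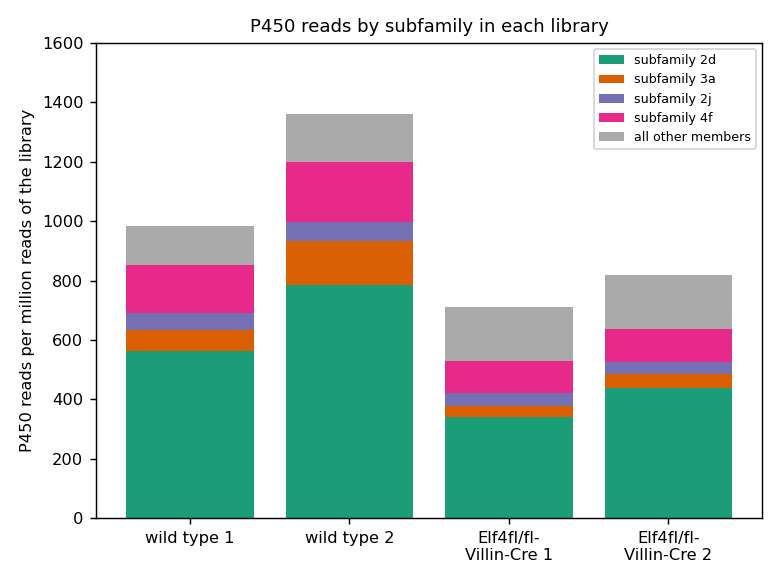
P450 reads per 1000000 reads of each library (y axis, linear from 0), stacked by subfamily, for 2 libraries of each genotype on the x axis. The Cyp2d subfamily is the lowest block of each bar and the largest, and the full bars stand at 984 and 1361 in wild type and at 711 and 817 in Elf4fl/fl-Villin-Cre.

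Of the 55 members, 49 had a mean of at least 1 and were tested. Cyp2a5, Cyp2a12, Cyp2c67, Cyp2c69, Cyp2w1 and Cyp3a11 fell under that limit, with at most 3 reads in any library. In limma's fit over all 22050 tested genes, 9 members were lower in Elf4fl/fl-Villin-Cre colon at an adjusted p under 0.05, 18.4% of those tested against 8.6% of all genes. These were Cyp2d9, Cyp2d10, Cyp2d34, Cyp2j6, Cyp3a13, Cyp4f13, Cyp4f14, Cyp4f16 and Cyp4f40. Only Cyp4f18 and Cyp7b1 were higher, 4.08% of members against 6.86% of all genes. All 11 had a mean of at least 100. Among the 20 members at that level, 45% were lower, against 15% of all genes that abundant, and 10% were higher, against 10.3%. The median log2 fold change was -0.99 over these 20 members and -0.01 over all genes at that level. Over the 49 tested members it was -0.03, against 0.11 over all genes tested. With a mean of at least 10 it was -0.72, against 0.07 over all such genes. The limit of 100 was not among the filter limits set for the fits (1 and 10), and the shares above it carry no test. Because it applies to the mean of all 4 libraries, some members pass through their higher group alone. Wild-type and Elf4fl/fl-Villin-Cre means were, for instance, 512 and 95.7 for Cyp4f40 and 69.5 and 317 for Cyp7b1.

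Counting only whether the groups overlapped, both Elf4fl/fl-Villin-Cre libraries lay below both wild-type libraries for 38.8% of tested members, against 27.2% of all genes. They lay above for 26.5%, against 35% of all genes. edgeR's quasi-likelihood test on the recovered reads tested 37 members and called all 11 in the same direction. It added Cyp2d26 and Cyp2f2 as lower, which made 29.7% of its members lower against 13.5% of its genes and 5.41% higher against 9.88%. DESeq2 gave an adjusted p for 36 members and called 13 lower (36.1%, against 15.4% of its genes) and 2 higher (5.56%, against 9.51%). Of the 11 it missed Cyp4f40, and it added Cyp2c68, Cyp2d12, Cyp2d26, Cyp2f2 and Cyp2s1 as lower. With any 1 library left out, limma called no gene of the whole table (smallest adjusted p = 0.0773, with 10 to 22 members at an unadjusted p under 0.05), whereas edgeR kept between 7 and 10 of the 11 members. Scaled by library totals instead, limma called 7 members lower and 7 higher of 48 tested. Over all 22025 genes of that fit it called 1194 lower and 4114 higher. Of all calls, 77.5% were then higher, against 44.4% in the deposited scaling. All 11 members kept their direction in that fit, but Cyp2d34 (adjusted p = 0.0531) and Cyp4f13 (adjusted p = 0.195) no longer passed.

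**Figure D2:**
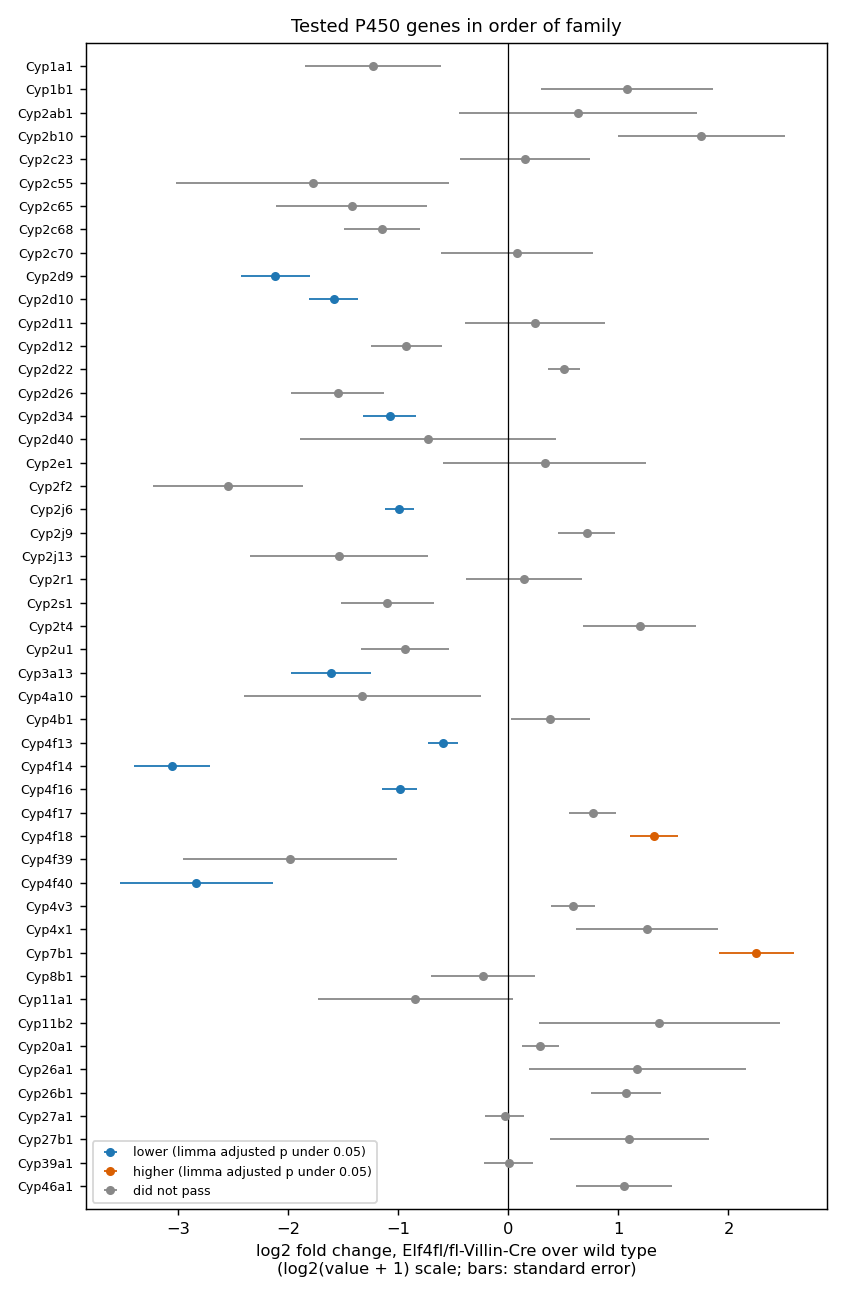
Log2 fold changes of Elf4fl/fl-Villin-Cre over wild type (x axis) with their standard errors (bars) for the 49 tested members, in order of family from top to bottom. Blue points are the 9 members lower and orange points the 2 higher at a limma adjusted p under 0.05, and wide bars belong mostly to members with few reads, including 4 with no read in one of the groups.

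The Cyp2d genes, which oxidise many drugs and plant alkaloids, lie in 1 cluster on chromosome 15, and all 8 annotated members had a row. Cyp2d34 (chr15:82615965-82620946) was the most abundant P450 transcript in every library, with 5966 and 8905 normalised reads in wild type versus 3029 and 3938 in Elf4fl/fl-Villin-Cre. The lower wild-type library was still well above the higher Elf4fl/fl-Villin-Cre one. Its log2 fold change was -1.08 (SE 0.24, limma adjusted p = 0.0333). In edgeR the call was lost without wild type replicate 2 (adjusted p = 0.0845), and also when Elf4fl/fl-Villin-Cre replicate 1 was left out (adjusted p = 0.06).

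Cyp2d10 (chr15:82402846-82407195) was at 1205 and 1470 in wild type and at 361 and 543 in Elf4fl/fl-Villin-Cre. The log2 fold change was -1.59 (SE 0.22, limma adjusted p = 0.013). Cyp2d9 (chr15:82433437-82456845) went furthest among the Cyp2d calls, from 975 and 1190 to 178 and 344. Its log2 fold change was -2.11 (SE 0.31, limma adjusted p = 0.0137), a 4.14-fold lower mean. In neither gene did the groups come near each other. These genes are close copies, and 35.8% of the 50-base words in Cyp2d10 transcripts and 21.8% of those in Cyp2d9 also occur in another gene's transcripts, against 7.55% for Cyp2d34. How reads common to copies were counted is not given in the sources used here, so the split between Cyp2d9, Cyp2d10 and their neighbours is uncertain.

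The promoters of Cyp2d9 and Cyp2d10 are shown because these neighbouring genes fell together and are alike upstream as well: the windows match at 252 of 304 aligned positions (82.9%). Both are 300 bases around the transcription start, most of them upstream of it, from the RefSeq annotation of GRCm38.p6, written 5′ to 3′ on the gene's strand. Cyp2d9 lies at chr15:82452127-82452426 on the plus strand and Cyp2d10 at chr15:82407145-82407444 on the minus strand. Neither window held any of the 3 motifs searched on both strands, and no letter is in capitals.
Cyp2d9: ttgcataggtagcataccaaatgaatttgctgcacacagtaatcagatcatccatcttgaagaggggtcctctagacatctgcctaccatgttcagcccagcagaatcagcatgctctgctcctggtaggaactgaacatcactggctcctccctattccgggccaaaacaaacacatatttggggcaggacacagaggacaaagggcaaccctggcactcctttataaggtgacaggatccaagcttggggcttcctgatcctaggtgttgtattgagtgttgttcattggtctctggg
Cyp2d10: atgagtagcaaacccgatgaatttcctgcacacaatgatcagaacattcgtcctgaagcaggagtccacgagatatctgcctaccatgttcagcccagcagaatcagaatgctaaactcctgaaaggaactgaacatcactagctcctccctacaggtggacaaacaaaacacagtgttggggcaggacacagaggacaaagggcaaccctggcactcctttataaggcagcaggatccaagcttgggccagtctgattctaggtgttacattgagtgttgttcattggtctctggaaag

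The other Cyp2d genes did not all follow. Cyp2d12 was at 791 and 1175 in wild type versus 377 and 682 in Elf4fl/fl-Villin-Cre, with groups apart. Its adjusted p was 0.107 in limma and 0.0784 in edgeR, and DESeq2 called it lower (adjusted p = 0.0211). Cyp2d22, chosen here after its values were seen, lay the other way, at 377 and 335 against 505 and 504 (log2 fold change 0.51, limma adjusted p = 0.0641). Cyp2d26, also chosen afterwards, was at 44.2 and 36.9 against 9.77 and 17.6, which passed in edgeR (adjusted p = 0.0366) and missed in limma (adjusted p = 0.0577). Cyp2d11 had at most 5 reads and Cyp2d40 at most 6 in any library. In all, 3 of 8 Cyp2d genes were lower and none higher in limma, against 8.6% and 6.86% of all tested genes. Their median log2 fold change was -1.001.

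**Figure D3:**
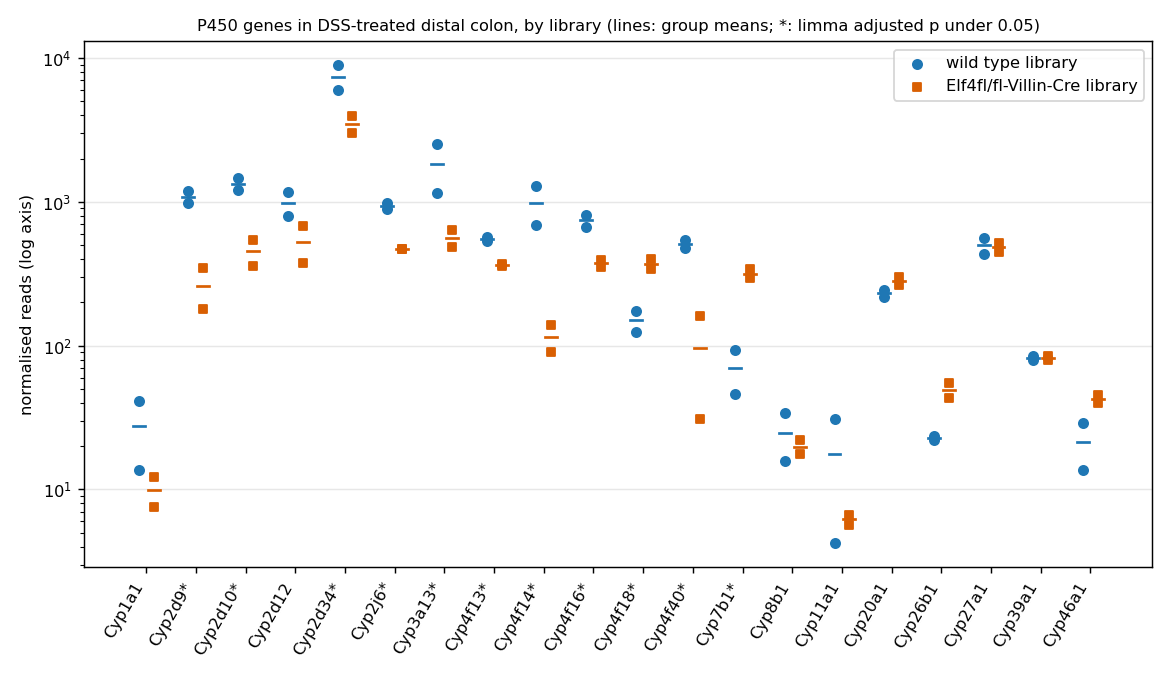
Normalised reads (y axis, log scale) of the 20 members named by the fixed rule, in order of family along the x axis, with 1 point per library, blue circles for wild type, orange squares for Elf4fl/fl-Villin-Cre and short lines for group means. Asterisks mark the 11 members past the limma threshold, and in each of them the points of the groups do not overlap.

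Cyp3a13 (chr5:137892932-137921619) encodes a member of the drug- and steroid-oxidising family 3, for which only it and the barely detected Cyp3a11 had rows. It was at 1148 and 2522 in wild type versus 489 and 634 in Elf4fl/fl-Villin-Cre. The wild-type libraries differed more from each other than the Elf4fl/fl-Villin-Cre ones did, and both lay above them. The log2 fold change was -1.61 (SE 0.36, limma adjusted p = 0.0355), and in edgeR it was -1.74. Leaving out wild type replicate 1 moved the edgeR value to -2.21, and leaving out wild type replicate 2, the higher library, moved it to -1.06. None of its 50-base words occurred in another gene.

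Among the remaining family 2 genes, Cyp2j6 (chr4:96516138-96553661) passed. It belongs to a subfamily that makes epoxides from arachidonic acid. Its values were 888 and 987 in wild type versus 473 and 468 in Elf4fl/fl-Villin-Cre, close within each group and clearly apart between them. The log2 fold change was -0.99 (SE 0.13, limma adjusted p = 0.0116). Its neighbour Cyp2j9, which shares no 50-base word with another gene, was at 53.5 and 47.4 against 92.8 and 74.4. The limma adjusted p of Cyp2j9 was 0.121, and this gene was not among those named by the fixed rule.

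None of the 5 tested Cyp2c genes, which oxidise drugs and arachidonic acid, passed in limma or edgeR, though edgeR did not test Cyp2c70. DESeq2 called Cyp2c68, and 1 had an unadjusted limma p under 0.05. The highest, Cyp2c55, was chosen here after its values were seen because a single library stood apart. It was at 319 and 228 in wild type, at 344 in Elf4fl/fl-Villin-Cre replicate 2 and at 17.1 in Elf4fl/fl-Villin-Cre replicate 1. Its log2 fold change was -1.78 (SE 1.24, limma adjusted p = 0.376), and it turned to 0.35 without that library. Cyp2c68 was at 109 and 169 against 47.2 and 77.8 (adjusted p = 0.0749 in limma, 0.0545 in edgeR and 0.0218 in DESeq2). Reads for it are hard to assign, since 43.3% of its 50-base words occur elsewhere.

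A few more family 2 genes were looked at after their values were seen. Cyp2s1, a P450 of epithelia outside the liver, was at 382 and 829 in wild type versus 197 and 349 in Elf4fl/fl-Villin-Cre (adjusted p = 0.135 in limma, 0.0869 in edgeR and 0.0172 in DESeq2). Cyp2f2, best known from airway epithelium, was at 25.7 and 47.4 against 2.44 and 10.03, with an adjusted p of 0.0553 in limma and 0.0364 in edgeR. Cyp2e1, the ethanol-oxidising P450 of liver and fat, was at 35.0 and 48.5 in wild type and at 151 and 17.6 in Elf4fl/fl-Villin-Cre. Its high library, Elf4fl/fl-Villin-Cre replicate 1, was also the highest for the 5 summed adipocyte markers, which stood at 656 and 519 in wild type versus 1201 and 596 in Elf4fl/fl-Villin-Cre. Most of that sum was Cfd, at 436 and 323 against 844 and 390. Cidec, Plin1 and Adipoq were also highest in that library, Adipoq only slightly (35.0 and 32.7 against 41.5 and 24.2). Lep was lowest there, at 1.63. The part of fat tissue in the Cyp2e1 value was not tested. Without that library the log2 fold change of Cyp2e1 went from 0.33 to -1.18.

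The Cyp4f genes hydroxylate long-chain fatty acids and eicosanoids, including the neutrophil attractant leukotriene B4, at or near the end of the chain. All 7 with a row were tested: 4 were lower, 1 was higher and 2 did not pass. Of all tested genes, 8.6% were lower and 6.86% higher. The lower Cyp4f genes lie together on chromosome 17, and the higher one, Cyp4f18, lies on chromosome 8.

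Cyp4f14 (chr17:32905070-32917342), a leukotriene B4 hydroxylase, had the largest fall among the members that passed. It went from 685 and 1286 in wild type to 90.4 and 139 in Elf4fl/fl-Villin-Cre, an 8.60-fold lower mean. Its log2 fold change was -3.06 (SE 0.34, limma adjusted p = 0.00942). Even the lower wild-type library stood far above both Elf4fl/fl-Villin-Cre libraries. Of its 50-base words, 2.39% occur in another gene.

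Cyp4f40 (chr17:32658900-32676914) also fell, from 477 and 547 in wild type to 30.9 and 161 in Elf4fl/fl-Villin-Cre. The Elf4fl/fl-Villin-Cre values, which rest on 38 and 192 reads, were far from each other. The log2 fold change was -2.83 (SE 0.69, limma adjusted p = 0.0445). Leaving out Elf4fl/fl-Villin-Cre replicate 1 brought it to -1.66, and leaving out replicate 2 of that group brought it to -4.002. The call was lost in DESeq2 (adjusted p = 0.0636), with no filter on low values (adjusted p = 0.0506) and in edgeR without wild type replicate 1 (adjusted p = 0.0863) or 2 (adjusted p = 0.129).

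Cyp4f16 (chr17:32536558-32551798) was at 668 and 816 in wild type versus 353 and 392 in Elf4fl/fl-Villin-Cre, with a log2 fold change of -0.99 (SE 0.16, limma adjusted p = 0.0163). The groups were well separated. Cyp4f37, which has no row here, shares 16.3% of its 50-base words. Cyp4f13 (chr17:32924688-32947402) changed least of the 11, from 567 and 532 to 368 and 360, with a log2 fold change of -0.59 (SE 0.14, limma adjusted p = 0.0369). Its libraries were tight within each group, yet in edgeR its call was lost without any of the 4 libraries (largest adjusted p = 0.0825).

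Cyp4f18 (chr8:71988482-72009626), known as a leukotriene B4 hydroxylase of mouse neutrophils, rose. It was at 175 and 124 in wild type versus 399 and 344 in Elf4fl/fl-Villin-Cre, a 2.48-fold higher mean with no overlap. The log2 fold change was 1.32 (SE 0.22, limma adjusted p = 0.0168). In edgeR the call was lost without wild type replicate 2 (adjusted p = 0.0517). The 7 neutrophil markers were higher in the same libraries, with summed levels of 1078 and 568 against 6617 and 6119, and their part in the Cyp4f18 value was not tested. Zfp961 shares 4.81% of its 50-base words, and whether the counting used strand is not given in the sources used here.

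The 2 members of the subfamily that did not pass were Cyp4f17 and Cyp4f39. Cyp4f17, which sits in the chromosome 17 cluster, was at 96.7 and 83.2 in wild type versus 166 and 141 in Elf4fl/fl-Villin-Cre (log2 fold change 0.77, limma adjusted p = 0.0616). Cyp4f39 had at most 12 reads. Outside the subfamily, Cyp4v3, a fatty acid hydroxylase, was at 217 and 234 against 399 and 289 (limma adjusted p = 0.102). Both Cyp4f17 and Cyp4v3 were chosen here after their values were seen. Family 4 as a whole had 4 lower and 1 higher of 11 tested, against 8.6% and 6.86% of all tested genes.

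The promoters of 4 Cyp4f genes are shown because 3 of the genes fell and Cyp4f18 rose. The windows are RefSeq ones of GRCm38.p6, 5′ to 3′ on the gene's strand as above. They lie at chr17:32917307-32917606 (minus, Cyp4f14, the most upstream of 4 start windows), chr17:32658636-32658935 (plus, Cyp4f40, the most upstream of 2), chr17:32947312-32947611 (minus, Cyp4f13) and chr8:72009577-72009876 (minus, Cyp4f18). Capitals mark matches to the aryl hydrocarbon receptor core GCGTG, the ETS core CCGGAAG or the HNF4 core CAAAGTCC on either strand. Cyp4f14 holds the aryl hydrocarbon receptor core on the reverse strand from base 14 of the window, Cyp4f13 the ETS core on the reverse strand from base 211, and Cyp4f18 the HNF4 core as printed from base 51. Cyp4f40 holds none.
Cyp4f14: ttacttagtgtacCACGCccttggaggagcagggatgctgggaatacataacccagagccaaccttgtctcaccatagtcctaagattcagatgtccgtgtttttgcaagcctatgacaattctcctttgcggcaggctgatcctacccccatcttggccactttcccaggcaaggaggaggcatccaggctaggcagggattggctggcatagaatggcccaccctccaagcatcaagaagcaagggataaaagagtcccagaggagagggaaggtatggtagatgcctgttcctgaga
Cyp4f40: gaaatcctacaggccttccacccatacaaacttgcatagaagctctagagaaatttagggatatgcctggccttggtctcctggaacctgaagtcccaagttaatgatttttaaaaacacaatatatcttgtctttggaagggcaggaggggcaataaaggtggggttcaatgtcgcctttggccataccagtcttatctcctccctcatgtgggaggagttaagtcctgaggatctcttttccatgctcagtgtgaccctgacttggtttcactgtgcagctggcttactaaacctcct
Cyp4f13: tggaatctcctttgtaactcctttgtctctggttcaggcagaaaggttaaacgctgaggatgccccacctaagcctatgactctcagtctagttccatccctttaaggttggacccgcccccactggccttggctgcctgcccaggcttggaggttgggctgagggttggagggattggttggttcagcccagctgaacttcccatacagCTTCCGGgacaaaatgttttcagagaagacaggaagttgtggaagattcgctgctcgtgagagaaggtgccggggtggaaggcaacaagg
Cyp4f18: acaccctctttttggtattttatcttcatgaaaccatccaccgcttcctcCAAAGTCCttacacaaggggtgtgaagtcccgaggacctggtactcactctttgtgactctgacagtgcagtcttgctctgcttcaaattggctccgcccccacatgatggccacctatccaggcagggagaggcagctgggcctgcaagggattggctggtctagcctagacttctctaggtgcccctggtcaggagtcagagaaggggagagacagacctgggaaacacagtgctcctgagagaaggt

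Of the 55 members, 44 had such a window in the RefSeq table. The ETS core, the letters bound by factors of the Elf4 class, occurred in 2 of the 44 (4.55%), Cyp2t4 and Cyp4f13, against 9.93% of all genes with a window. The aryl hydrocarbon receptor core occurred in 15 (34.1%) against 35.2%. The HNF4 core occurred in 9 (20.5%) against 1.63%. These 9 were Cyp2a5, Cyp2c65, Cyp2c67, Cyp2c68, Cyp2c69, Cyp2c70, Cyp3a11, Cyp4f18 and Cyp8b1, several of them closely related Cyp2c copies. Cyp4f18 was the only gene of these 9 among the 11 that changed, and Cyp2d34 and Cyp7b1 had no window to search.

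The P450s of cholesterol and bile acid metabolism behaved one by one. Cyp7b1 (chr3:18071950-18243338) hydroxylates oxysterols, which feeds the alternative pathway of bile acid synthesis and makes the ligand of the immune cell receptor Gpr183. It had the largest rise among the members that passed, from 92.6 and 46.4 in wild type to 339 and 296 in Elf4fl/fl-Villin-Cre. Both Elf4fl/fl-Villin-Cre libraries stood far above the wild-type ones, and the mean was 4.57-fold higher. The log2 fold change was 2.25 (SE 0.34, limma adjusted p = 0.0141), and the call held in edgeR with each library left out. None of its 50-base words occurs in another gene.

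Cyp27a1, the mitochondrial sterol hydroxylase that acts before Cyp7b1 in that pathway, was at 434 and 562 in wild type versus 521 and 446 in Elf4fl/fl-Villin-Cre, with overlapping groups. Its log2 fold change was -0.03 (SE 0.18, limma adjusted p = 0.919). Cyp39a1, another oxysterol hydroxylase, was at 79.2 and 85.4 against 79.8 and 85.3. Cyp8b1, which directs synthesis to cholic acid, was at 34.0 and 15.8 against 21.99 and 17.6 (limma adjusted p = 0.777). Cyp46a1, the cholesterol hydroxylase known from brain, was at 28.8 and 13.7 against 39.9 and 45.2, with groups apart and a limma adjusted p of 0.159.

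The other families held 1 or 2 detected members each. Cyp1a1, an Ahr target that oxidises aromatic hydrocarbons, was at 41.2 and 13.7 in wild type versus 12.2 and 7.53 in Elf4fl/fl-Villin-Cre (limma adjusted p = 0.228). Cyp11a1, which starts steroid synthesis from cholesterol, was at 30.9 in wild type replicate 1 and between 4.21 and 6.69 in the other libraries. Its log2 fold change of -0.84 turned to 0.46 without wild type replicate 1. Of the adrenal cortex markers, only Star had a row, at 56.6 and 81.1 in wild type versus 89.6 and 140 in Elf4fl/fl-Villin-Cre (limma adjusted p = 0.182).

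Cyp20a1, a P450 without an established substrate, was at 219 and 242 against 302 and 263 (limma adjusted p = 0.284). Cyp26b1, which breaks down retinoic acid, was at 23.7 and 22.1 in wild type versus 55.4 and 43.5 in Elf4fl/fl-Villin-Cre. Its groups did not overlap, but its log2 fold change of 1.07 missed the threshold in limma (adjusted p = 0.0758) and edgeR (adjusted p = 0.0583). Across families 1, 8, 11, 20, 26, 27, 39 and 46, none of 12 members tested in limma passed there, and 1 had an unadjusted limma p under 0.05. None was called in edgeR or DESeq2 either, but edgeR did not test Cyp11a1, Cyp11b2, Cyp26a1 and Cyp27b1. DESeq2 gave no adjusted p for Cyp11b2, Cyp26a1 and Cyp27b1. Families 17, 19, 21 and 24 had no row.

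Per kilobase of exon, which allows levels of different genes to be set side by side, the order of the 36 members with a mean of at least 10 changed between the groups. Cyp2d34 ranked highest in both, at a mean of 2679 normalised reads per kilobase in wild type against 1255 in Elf4fl/fl-Villin-Cre, and Cyp2d10 ranked next in both, at 812 and 274. Cyp4f14 went from rank 4 to rank 18, from 407 to 47.4. In the other direction, Cyp4f18 went from rank 16 to rank 4, from 80.7 to 200.2, and Cyp7b1 from rank 19 to rank 6, from 32.1 to 147. In wild type, Cyp4f14 and Cyp2d9 had nearly equal means and overlapping libraries. In Elf4fl/fl-Villin-Cre, Cyp4f18 at 215 and 185 and Cyp3a13 at 165 and 214 overlapped as well.

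Set against the epithelial markers, the falls were of different size. The geometric mean of the 16 epithelial markers was 16012 and 19882 in wild type versus 5570 and 7727 in Elf4fl/fl-Villin-Cre, 2.70-fold lower. This scale was chosen after the values were seen and carries no test. The markers themselves fell between 1.79-fold (Muc2) and 5.34-fold (Slc26a3). Cyp2d9 (4.14-fold) and Cyp2d10 (2.96-fold) fell less than Slc26a3, so results on this scale depend on the markers pooled. The log2 fold changes of Cyp4f14 and Cyp4f40 lay below that of every epithelial marker, of which the lowest was -2.37 (Slc26a3). For Cyp4f40 this rested on the limma scale and on 1 library: in edgeR it was at -2.46 against -2.45 for Slc26a3, and without Elf4fl/fl-Villin-Cre replicate 1 it was at -1.66 in limma and -1.72 in edgeR. Per 1000 epithelial units, Cyp4f14 was at 42.8 and 64.7 in wild type and at 16.2 and 18.0 in Elf4fl/fl-Villin-Cre. Cyp2d9 was at 60.9 and 59.8 against 32.02 and 44.6.

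On the same scale, Cyp4f40 and Cyp2d10 also stayed lower in both Elf4fl/fl-Villin-Cre libraries, although Cyp2d10 differed little, at 75.2 and 73.9 against 64.8 and 70.2. Cyp3a13 overlapped between the groups. The other 4 that fell in normalised reads, Cyp2d34, Cyp2j6, Cyp4f13 and Cyp4f16, were higher per epithelial unit in both Elf4fl/fl-Villin-Cre libraries. Cyp2d34, for instance, was at 373 and 448 in wild type and at 544 and 510 in Elf4fl/fl-Villin-Cre. Such a rise is not particular to these genes, because the divisor itself was lower in Elf4fl/fl-Villin-Cre. Cyp27a1, flat in normalised reads, went from 27.1 and 28.2 to 93.6 and 57.8 on this scale, and Cyp39a1 from 4.95 and 4.29 to 14.3 and 11.0. The share over all genes was not taken on this scale.

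**Figure D4:**
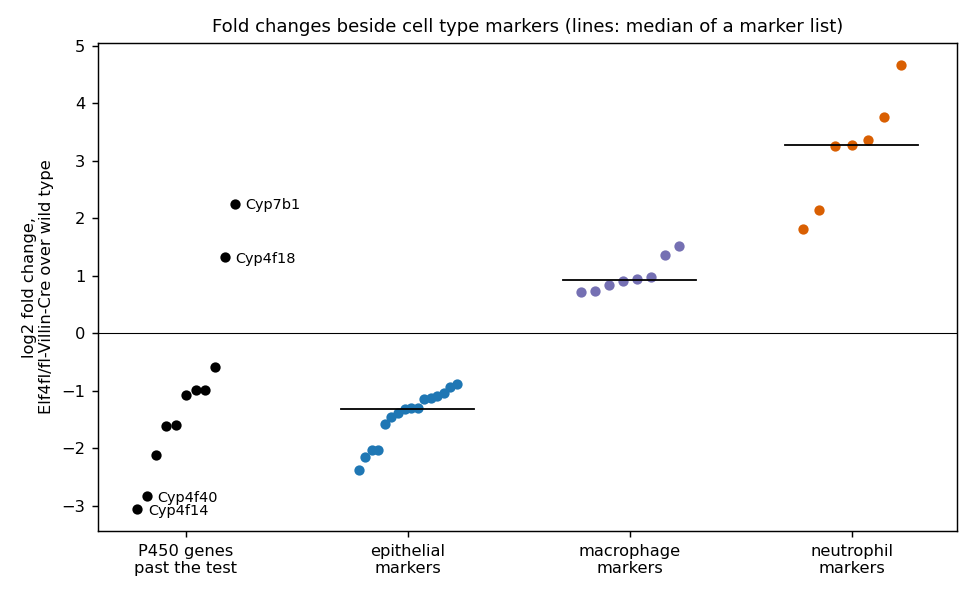
Log2 fold changes of Elf4fl/fl-Villin-Cre over wild type (y axis) for the 11 P450 genes past the threshold and for the epithelial, macrophage and neutrophil marker lists (x axis), 1 point per gene, with lines at the list medians of -1.31, 0.93 and 3.28. With all 4 libraries on this limma scale, Cyp4f14 and Cyp4f40 lie below every epithelial marker, though Cyp4f40 does not without Elf4fl/fl-Villin-Cre replicate 1, and Cyp4f18 and Cyp7b1 lie above 0.

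For the gene lists that follow, the shares over all tested genes were 8.6% lower and 6.86% higher in limma. Of 6 genes listed as electron donors, 1 was lower and none higher in limma. This was Cyb5b, a cytochrome b5 of the outer mitochondrial membrane, at 3210 and 3976 in wild type versus 1731 and 1749 in Elf4fl/fl-Villin-Cre (log2 fold change -1.04, limma adjusted p = 0.0136). Por, the reductase that serves the microsomal P450s, was at 1773 and 1925 against 1495 and 1740 and did not pass (limma adjusted p = 0.385). Of the 4 epoxide hydrolases, which open the epoxides that P450s form, none passed in limma, edgeR or DESeq2, and 2 had an unadjusted limma p under 0.05.

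Of 15 listed receptors and regulators of P450 genes, 7 were lower and 1 was higher in limma. Hnf4a, a regulator of genes of gut and liver epithelium, was at 8902 and 11763 in wild type and at 2559 and 3444 in Elf4fl/fl-Villin-Cre (log2 fold change -1.79, limma adjusted p = 0.00986). Nr1i2, the pregnane X receptor, which induces Cyp3a genes, was at 1065 and 1193 against 343 and 584 (log2 fold change -1.33, limma adjusted p = 0.024). Hnf4g, Nr5a2, Pparg and Nr1h4 were lower too, with log2 fold changes from -1.99 to -0.77. Ahr, the aryl hydrocarbon receptor, was the higher one, at 306 and 300 against 555 and 510 (log2 fold change 0.81, limma adjusted p = 0.0185). Its target Cyp1a1, at only 9 to 40 reads per library, had a log2 fold change of -1.23 and did not pass. Tiparp (log2 fold change 0.43, limma adjusted p = 0.0747), Ahrr (0.17, limma adjusted p = 0.687) and Cyp1b1 (1.08, limma adjusted p = 0.389) did not pass either.

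In retinoid handling, 4 of 12 genes were higher and none lower in limma. They included Aldh1a2, which makes retinoic acid (119 and 116 in wild type against 289 and 308 in Elf4fl/fl-Villin-Cre), and Rdh10 and Stra6, with log2 fold changes of 0.87 and 1.45. In the vitamin D list, Vdr and S100g were lower, 2 of 4 genes, with log2 fold changes of -1.90 and -2.59. Of 3 P450 genes with other kinds of symbol, Cyp51, an enzyme of cholesterol synthesis, was lower at 2280 and 3222 against 919 and 1003 (log2 fold change -1.50, limma adjusted p = 0.0108). Tbxas1 and Ptgis, the thromboxane and prostacyclin synthases, did not pass.

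The remaining marker lists gave smaller shifts. In limma, 3 of 7 fibroblast and 2 of 6 endothelial markers were higher, and 1 of 6 smooth muscle markers was lower. None of 6 hepatocyte or 5 adipocyte markers passed in limma, edgeR or DESeq2, with 1 hepatocyte and 0 adipocyte markers at an unadjusted limma p under 0.05. Serpina1a, Apoa2 and Lep were not tested in edgeR. Of the 6 hepatocyte markers, 4 were lower in both Elf4fl/fl-Villin-Cre libraries and 1 was higher in both, against 27.2% and 35% of all genes. Among the 4, Serpina1a (1.03 and 3.16 in wild type against 0 and 0) and Apoa2 (10.3 and 9.48 against 6.52 and 6.69) had few reads. Tat, which carried between 86.0% and 92.1% of their summed level, overlapped between the groups at 2536 and 2206 in wild type versus 1279 and 2606 in Elf4fl/fl-Villin-Cre. The other 5 summed to 285 and 358 in wild type versus 173 and 225, without overlap, and most of this was Ttr and Alb.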

How the data were processed

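Colon RNA was extracted with Trizol and sequenced as 2 wild-type and 2 Elf4fl/fl-Villin-Cre samples, per the labels. The deposited table holds 1 normalised signal per gene and library, made by the authors. Each value was a whole multiple of a step, so whole reads were recovered for 100% of values (tolerance 0.01). In the deposited scaling, 1 read was worth 1.03 and 1.05 in wild type against 0.814 and 0.836 in Elf4fl/fl-Villin-Cre. Per the submitters' processing notes, the genome build was mm10. Not given in the sources used here were the aligner, counter, annotation and strandedness. Gene symbols came from GENCODE mouse release 21, which matched 22376 of 22422 identifiers (99.8%), versions ignored.

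The test was limma 3.58.1 (R 4.3.3) with a variance trend on log2(value + 1), all 4 libraries, genotype as the only term and genes with a mean of at least 1. P-values were Benjamini-Hochberg adjusted over 22050 genes, with a threshold of 0.05. Fold changes are on that log2 scale, which understates changes of low genes. The fit had 2 residual and 4.06 prior degrees of freedom. edgeR 4.0.16 (TMM) and DESeq2 1.42.0 on the recovered reads were alternatives, as were other pseudocounts, filters and scalings, a replicate block and leaving out libraries. The scripts were tested on simulated data.

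Genes named by the fixed rule were the members past the threshold, the 10 with the highest mean, and the highest of each family with a mean of at least 10. Other members given with values, among them Cyp2j9, Cyp2c68, Cyp4f17 and Cyp4v3, were outside this rule and not fixed in advance. The members and lists were chosen with earlier results of these data known. Some genes of the lists are not reported here.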

Additional observations from a re-analysis of the deposited data

How the results depend on the processing

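Each gene that passed kept its direction under all 17 alternatives. Counts of P450 genes higher and lower were 2 and 9. Scaling by library totals moved the median of all genes by 0.3 to 0.405. It gave 7 higher and 7 lower of 48 members, against 4114 higher and 1194 lower of 22025 genes. It turned the P450 median from -0.034 to 0.278, and a mean of at least 10 moved that median to -0.718. limma without 1 library called 0 members in either direction, whichever was left out. The recovered reads were also fitted in edgeR without each library, chosen after seeing the data: without wild type replicate 2 there was 1 higher and the median was -0.51, the median was -0.559 when Elf4fl/fl-Villin-Cre replicate 1 was left out, and in the fit that lacked replicate 2 of that group there were 4 higher and 14 lower with a median of -0.621. The difference in summed P450 reads (RPM), -408.6, ranged from -596.9 to -220.4 without 1 library. The labels tie same-numbered libraries by a number only (correlation of their deviations 0.104 over 22050 genes, 2 pairs). Whether they also share a batch cannot be told from so few pairs. With the replicate block, limma called 3 members higher and 13 lower of 49, against 2066 higher and 2445 lower of 22050 genes. edgeR called 4 members higher and 14 lower of 37, against 2456 higher and 2977 lower of 17337 genes. Calls over all genes were fewer without the block (1512 and 1897 in limma, 1713 and 2341 in edgeR). All 11 were included in both, and both also called Cyp2d12 lower (limma adjusted p = 0.00645, edgeR adjusted p = 0.00125). Library totals replace the deposited factors, which differ by genotype: 1 read was worth 1.03 and 1.05 in wild type against 0.814 and 0.836 in Elf4fl/fl-Villin-Cre. Fewer samples enter when a library is left out. Beyond these points the cause of the changes was not tested.

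Several genes that did not pass changed sign. Without 1 library in limma, log2 fold changes ranged from -0.219 to 0.152 for Cyp27a1, from -0.048 to 0.058 for Cyp39a1, from -0.759 to 0.298 for Cyp8b1, from -2.15 to 0.461 for Cyp11a1, from -3.901 to 0.35 for Cyp2c55 and from -1.185 to 1.846 for Cyp2e1. In edgeR without 1 library, they ranged from -0.259 to 0.133 for Cyp27a1 (0.028 without Elf4fl/fl-Villin-Cre replicate 2), from -0.093 to 0.035 for Cyp39a1 (-0.082 without that library), from -0.799 to 0.278 for Cyp8b1, from -4.025 to 0.286 for Cyp2c55 and from -1.289 to 1.812 for Cyp2e1. Library totals gave 0.282 for Cyp27a1 and 0.071 for Cyp8b1. Cyp39a1 was at -0.024 in edgeR, -0.056 in DESeq2 and -0.023 in edgeR with the replicate block. Depth limits the 49 tested members unevenly: 36 had a mean of at least 10 normalised reads, and for the others small changes were not detectable.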
